A study of Mus musculus with 8 samples.

Results

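Cytosolic ribosomal protein genes encode the proteins that, with ribosomal RNA, build the small and large subunits of the ribosome outside mitochondria. Members were taken by symbol: names of the form Rps or Rpl followed by a number, with an optional letter suffix, and the genes Rpsa, Rplp0, Rplp1 and Rplp2, leaving out names that mark a pseudogene by "-ps". The rule found 89 of the 55488 genes in the tables, 36 of the small and 53 of the large subunit. They were divided into 77 protein-coding core genes (31 small, 46 large), 7 paralogues of core genes and 5 other pseudogene copies. The paralogues were set by a list of symbols and are Rps4l, Rps27l, Rpl3l, Rpl7l1, Rpl10l, Rpl22l1 and Rpl39l. The annotated gene type divided the rest, and the pseudogene copies are Rpl32l, Rpl6l, Rps12l1, Rps3a2 and Rps3a3. The filter on low counts left 87 members in the test. The 2 that did not pass were Rpl10l, listed at 0 in every library, and Rps12l1, which held a fraction of 1 expected count in 1 wild-type library. Of the paralogues, Rps4l carries the annotation of a transcribed processed pseudogene and the others are protein-coding. By gene type alone Rps4l would fall among the pseudogene copies.

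The study compared bulk RNA-seq of dorsal skin from wild-type (WT) mice and from their TPH1 knockout (KO) derivatives, all 3 months old, with 4 libraries of each genotype. TPH1 is the tryptophan hydroxylase of serotonin synthesis outside the brain. The labels give no strain, sex, allele or treatment, and do not say whether each library came from a different mouse. Libraries are numbered WT 1 to 4 and KO 1 to 4 here in the order of the records, and a number shared by both genotypes pairs nothing. Tph1 had 18, 0, 27 and 11 counts in WT 1 to 4 and 0 in each knockout library, and did not pass the filter on low counts. The library labelled wild type and called WT 2 here thus had no more Tph1 counts than the knockout libraries, and the targeted gene does not bear out its label. Without WT 2 the median log2 fold change of the core genes described below was -0.45 in place of -0.43, and Rps4l, the 1 member that edgeR called with all libraries, did not pass.

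Every ribosome needs 1 copy of almost every ribosomal protein, so cells hold the mRNAs of these genes at high and roughly balanced levels. Most of these mRNAs begin with a run of pyrimidines, the terminal oligopyrimidine tract, through which mTORC1 signalling controls their translation. In skin, keratinocytes of the basal layer and of the growing hair bulb are rich in ribosomes, and mouse mutants with less of a ribosomal protein are known for dark skin or altered coat pigment. A few members have a second gene copy used in particular tissues, such as Rpl3l, which takes the place of Rpl3 in striated muscle.

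The sequences at the starts of 3 core genes show a pyrimidine run near the start, and that of Rpl3l shows none. The core gene Rps4x, not printed, had none either. In Rpl13a the run begins after the listed start. Each line gives a window of 30 bases before to 20 bases after the start in RefSeq on GRCm38.p6, 5′ to 3′. Capitals mark the longest run of at least 7 C or T within 15 bases of the start. For a gene with several windows, the window with the longest run was taken.
Rps6 (minus strand, chr4:86857348-86857397): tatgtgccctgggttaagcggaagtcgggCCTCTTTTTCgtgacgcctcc
Rpl13a (minus strand, chr7:45128726-45128775): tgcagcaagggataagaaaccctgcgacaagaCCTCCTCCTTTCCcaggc
Rpl38 (plus strand, chr11:114668550-114668599): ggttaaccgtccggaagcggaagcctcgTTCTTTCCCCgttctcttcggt
Rpl3l (plus strand, chr17:24727796-24727845): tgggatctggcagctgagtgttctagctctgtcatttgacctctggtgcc
Of the 77 core genes, 57 had a RefSeq start window (67 windows in all). A run of at least 7 C or T within 15 bases of the start was present in 47.8% of these core windows and in 18.6% of 32851 windows of all genes. CGGAAG, letters bound by ETS factors and searched on both strands of each window of 300 bases, was present in 62.7% of core windows and 16.9% of all. AAGATGG, letters bound by YY1, was in 16.4% against 6.34%, and TATAAA, the TATA box, in 8.96% against 13.6%. These are counts of letters and not of bound sites.

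The 77 core genes were lower on average in knockout skin, each by a modest amount, and none passed the test. All 77 had a negative log2 fold change, from -0.63 for Rps12 to -0.24 for Rpl4, with a median of -0.43 where the median of all 16908 tested genes was 0.029. Among all 87 tested members 86 were negative, with a median of -0.42, and 46.9% of all genes tested were negative. Rps4l was the 1 member called lower at a false discovery rate (FDR, the Benjamini-Hochberg adjusted p over all genes) under 0.05 by edgeR's quasi-likelihood test, where 0.532% of all genes were called lower and 0.118% higher. At an unadjusted p under 0.05, 6 of the 77 core genes and 9 of the 87 tested members were lower, against 9.37% of all genes, with 8.26% higher. All 4 knockout libraries lay below all 4 wild-type libraries in 1 core gene, Rpl3, and in 4 of the 87 members, against 5.65% of all genes. No member had all knockout libraries above all wild-type libraries, a pattern seen in 5.39% of all genes. In this fit the share of core genes past each of these thresholds was no larger than that of all genes, while their direction was uniform. The core genes share all libraries and rise and fall together across them, as given below. Their common sign is therefore not 77 separate observations. The share at an unadjusted p under 0.05 depended on the scale and the test, as given below.

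**Figure D1:**
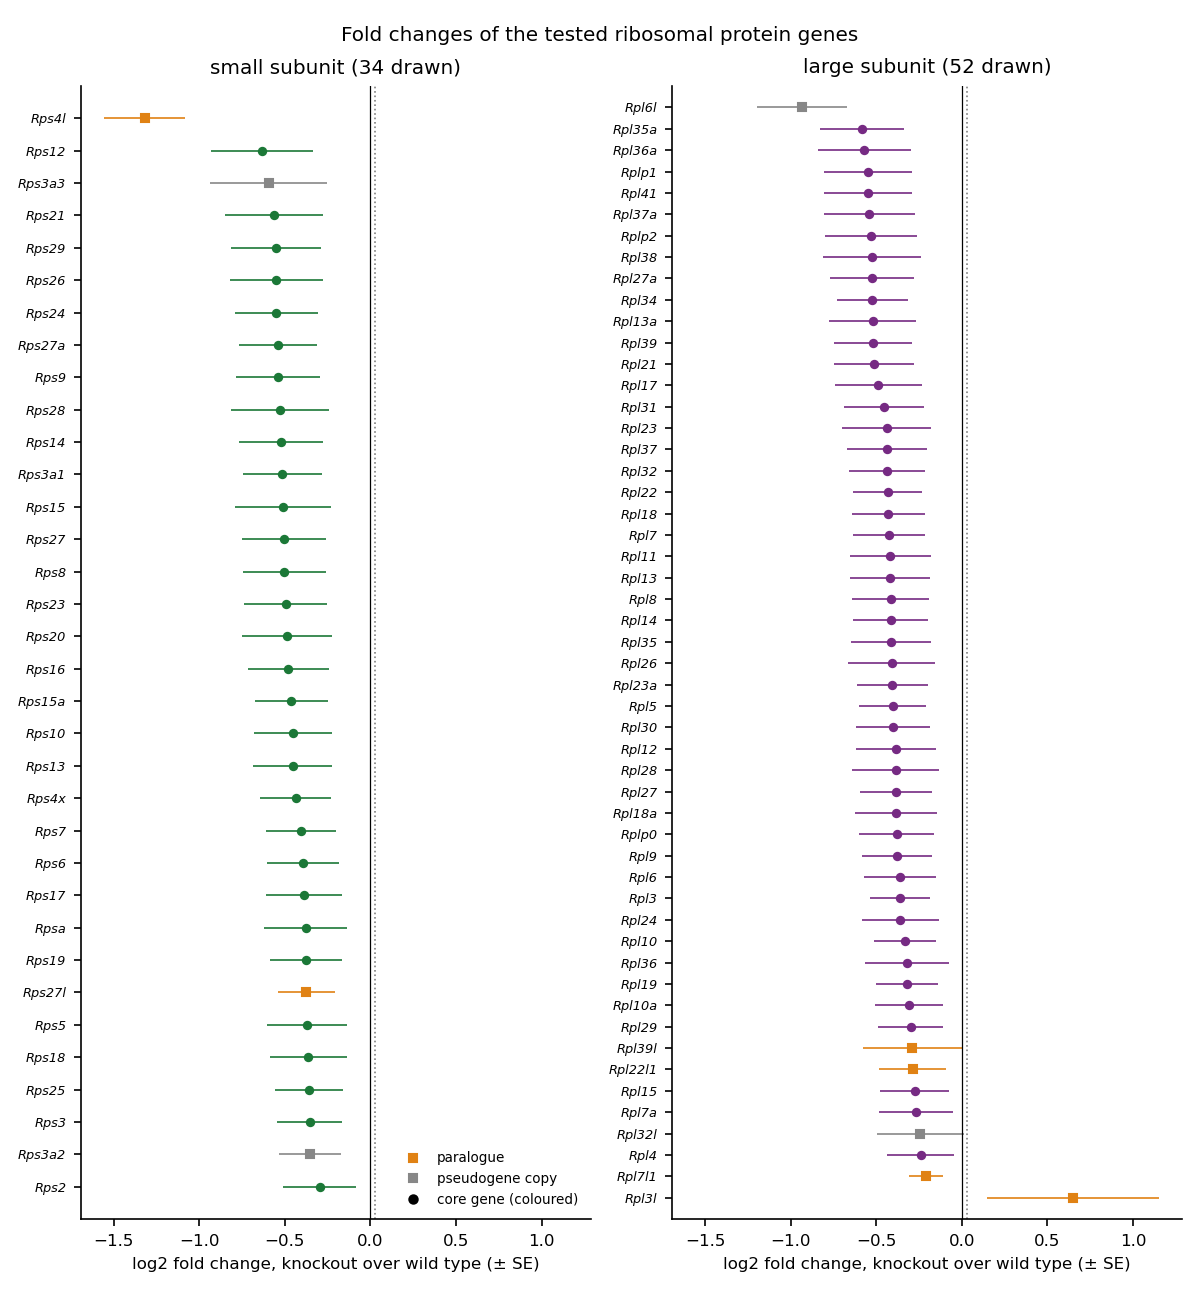
Log2 fold change, knockout over wild type, with its SE for tested small subunit members (left, with 1 of the 35 not drawn) and the 52 tested large subunit members (right); the solid line is 0 and the dotted line the median of all genes tested, 0.029. Rps4l stands lowest at -1.32, Rpl3l is the only member above 0, and the core genes lie between -0.63 and -0.24.

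The core genes shared 1 order of libraries at its ends. WT 3 was the highest and KO 3 the lowest library in CPM for 77 of 77 core genes. KO 1 and KO 2 were both above WT 1 for 71 of 77, so the genotypes overlapped for nearly every core gene. The summed level of the 77 core genes was 41406, 55147, 73769 and 56616 CPM in WT 1 to 4 and 50315, 45306, 30978 and 41578 CPM in KO 1 to 4. CPM are counts scaled to library size after TMM adjustment. Only KO 3 lay below the lowest wild-type library, WT 1. As a share of all expected counts, the core genes took 4.44%, 5.37%, 8.0% and 5.38% in wild type and 4.45%, 4.65%, 3.39% and 3.85% in knockout, a mean of 5.80% ± 1.53 against 4.08% ± 0.575 (SD, n = 4 each), again with overlap. In summed TPM, which divides by gene length and by the library's own total, the order of the genotypes separated: 114508, 136634, 187537 and 123760 in wild type against 101868, 108650, 90408 and 93442 in knockout. With mitochondrially encoded genes taken out of the TPM total, the core genes held 12.8% to 20.0% in wild type and 10.4% to 12.9% in knockout, and the ranges touched. Whether the genotypes overlap in the summed level therefore depends on the scale.

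**Figure D2:**
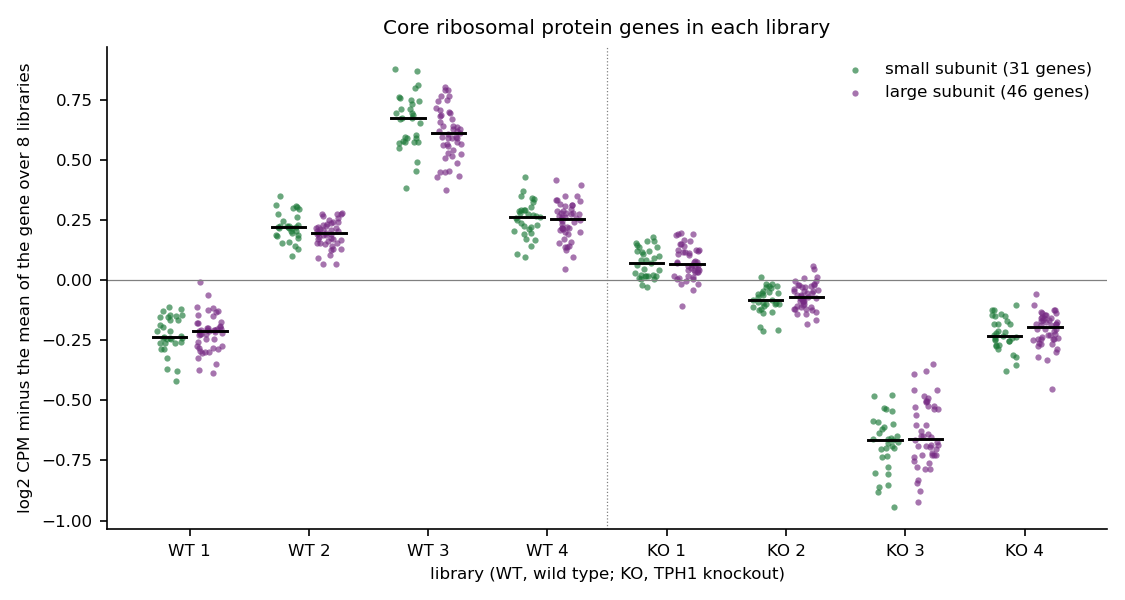
Log2 CPM of each core gene minus its mean over 8 libraries, with small subunit genes in green, large subunit genes in purple and a black line at each median. All 77 genes peak in WT 3 and are lowest in KO 3, and the clouds of WT 1, KO 2 and KO 4 lie side by side.

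Leaving out WT 3 moved the core median from -0.43 to -0.28, and leaving out KO 3 moved it to -0.31. Leaving out both, a choice made after the values were seen, gave -0.16 with all 77 core genes still negative and 0 called, 0 of them at an unadjusted p under 0.05 (edgeR), where 8.6% of all genes were lower at that p. Leaving out WT 1, the lowest wild-type library, gave -0.56 and 60 core genes lower at an unadjusted p under 0.05, where 9.16% of all genes in that fit were, with a smallest FDR of 0.201 by edgeR. In no alternative that was run did a core gene pass the adjusted threshold or turn positive. DESeq2 gave the core genes a smallest FDR of 0.134, with 40 of 77 lower at an unadjusted p under 0.05, against 10.8% of all genes. With all 8 libraries, edgeR had 50 of 77 lower at that p with library totals only. It had 27 with no filter on low counts and 1 with upper quartile scaling. By limma 62 were lower on log2(TPM + 1) and 63 on log2(TPM + 0.1). All genes at that p, in either direction, numbered 2674, 3433 (of 29559), 2988, 2361 and 2357 in the same order, of 16908 unless given. The main fit had 2981 of 16908 counted that way. The core counts are of lower genes alone, so they are not on the same basis as these numbers. DESeq2 called 3.8% of all genes lower and 2.02% higher, far more than edgeR, and of the members it called Rps4l and Rpl6l, both lower.

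With all libraries, the small subunit genes lay slightly below the large subunit genes. The 31 core small subunit genes had a median log2 fold change of -0.48 (from -0.63 to -0.30) and the 46 core large subunit genes -0.42 (from -0.58 to -0.24). With every tested member counted, the medians were -0.48 over 35 small and -0.41 over 52 large subunit members. The ratio of summed small to large subunit TPM was 0.777, 0.800, 0.810 and 0.787 in wild type and 0.782, 0.776, 0.764 and 0.779 in knockout. The highest ratio was again in WT 3 and the lowest in KO 3, and the genotypes overlapped. Without WT 3 and KO 3 the core medians were close, -0.16 for small and -0.15 for large subunit genes. Within the libraries of longer fragments they were -0.22 and -0.20. The 2 subunits were thus nearly in step within each library.

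Among large subunit genes, those of the stalk form the lateral arm that recruits translation factors: Rplp0 encodes its base and Rplp1 and Rplp2 the acidic proteins bound to it. Rplp1 measured 979, 1313, 1769 and 1301 CPM in wild type and 1179, 982, 628 and 882 CPM in knockout (log2 fold change -0.55 ± 0.26 SE, edgeR FDR = 0.305). Rplp2 measured 349, 504, 731 and 512 CPM against 481, 398, 237 and 336 CPM (-0.53 ± 0.27 SE, edgeR FDR = 0.335). In both, WT 1 fell among the knockout libraries. Rplp0, the longest of the 3, measured 1534, 1876, 2383 and 1845 CPM against 1710, 1478, 1169 and 1508 CPM, with a smaller log2 fold change of -0.38 ± 0.22 (SE, edgeR FDR = 0.386). Per length, Rplp1 had the highest mean TPM of all core genes, 4060, against 1943 for Rplp0 and 1399 for Rplp2.

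Small subunit genes with well known roles followed the same library order. Rps6, whose protein is phosphorylated downstream of mTORC1, measured 613, 781, 1022 and 772 CPM in wild type and 708, 636, 473 and 611 CPM in knockout (-0.39 ± 0.21 SE, edgeR FDR = 0.352). Rps19 and Rps20 are the genes of the dark skin mouse mutants, in which keratinocytes overproduce Kit ligand through p53. Rps19 was at 587 ± 124 CPM in wild type and 453 ± 85.2 CPM in knockout (SD, n = 4 each), and Rps20 at 741 ± 205 and 528 ± 136 CPM, neither passing (edgeR FDR = 0.374 and 0.355). Rps27a, which encodes a ribosomal protein fused to ubiquitin, was at 566 ± 145 against 389 ± 77.6 CPM and had one of the smaller unadjusted p-values of the core (edgeR unadjusted p = 0.0390, FDR = 0.259 over all genes). Rpsa, whose protein sits at the small subunit and is also known as a laminin receptor, and Rps3, which lines the mRNA entry channel, had log2 fold changes of -0.38 ± 0.24 and -0.35 ± 0.19 (SE). Rps12, the core gene with the most negative value, measured 627, 877, 1376 and 1015 CPM against 837, 705, 391 and 580 CPM (-0.63 ± 0.30 SE, edgeR FDR = 0.305). Its range is the widest of these examples, and KO 1 exceeded WT 1. Rps2, another small subunit gene, had the least negative value of its subunit, -0.30 ± 0.21 (SE).

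Large subunit genes showed the same pattern. Rpl5 and Rpl11, whose proteins bind Mdm2 when ribosome assembly is disturbed and so stabilise p53, were at 721 ± 149 against 545 ± 66.1 CPM and 649 ± 172 against 485 ± 99.3 CPM (SD, n = 4 each), with edgeR FDR = 0.311 and 0.377. Rpl24, the gene of the belly spot and tail mouse, was at -0.36 ± 0.22 and Rpl38, the gene of the tail short mouse, at -0.53 ± 0.29 (log2 fold change, SE). Rpl13a, whose protein can leave the ribosome to silence inflammatory mRNAs, was at -0.52 ± 0.25, and Rpl10, which is needed for the last step of large subunit assembly, at -0.33 ± 0.18 (SE). Rpl34 and Rpl35a had the smallest unadjusted p-values of the core, 0.0300 and 0.0387, with edgeR FDR = 0.235 and 0.258. Rpl3, whose protein reaches toward the peptidyl transferase centre, measured 676, 765, 954 and 701 CPM in wild type and 631, 634, 533 and 614 CPM in knockout. It was the core gene without overlap, by a gap between KO 2 and WT 1, at -0.36 ± 0.17 (SE, edgeR FDR = 0.311). Rpl4, the least negative, measured 1216, 1405, 1711 and 1437 CPM against 1359, 1250, 1004 and 1268 CPM (-0.24 ± 0.20 SE).

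The order of the core genes by level per length was nearly the same in both genotypes, with a Spearman rank correlation of 0.979 between mean TPM of wild type and knockout over 77 genes that share all libraries. Mean TPM over 8 libraries had a median of 1422 and differed 6.40-fold between the highest, Rplp1, and the lowest, Rpl27 at 634. Rps27 (3298), Rps15 (3242) and Rpl41 (3214) followed Rplp1, and Rps3 (645) and Rpl5 (658) stood just above Rpl27. The median was 1610 TPM for core small and 1267 TPM for core large subunit genes. The relation of this order to gene length was not tested. TPM of genes close to the fragment length depends strongly on the effective length that RSEM assigns.

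Rps4l was the only member that edgeR called lower in knockout skin, a call lost in 15 of 24 alternatives. Its counts were 342, 532, 612 and 503 in WT 1 to 4 and 167, 225, 240 and 157 in KO 1 to 4, or 12.9, 23.6, 27.5 and 22.6 CPM against 7.73, 9.37, 10.5 and 7.14 CPM. The highest knockout library lay below the lowest wild-type library, and KO 3, the lowest library for the core genes, was the highest knockout library for Rps4l. The wild-type mean was 21.7 ± 6.2 CPM and the knockout mean 8.67 ± 1.52 CPM (SD, n = 4 each), a log2 fold change of -1.32 ± 0.24 (SE) with an edgeR FDR of 0.0473. This FDR stands close to the threshold, and over the alternatives with all 8 libraries in edgeR and limma it ran from 0.0127 (no filter on low counts) to 0.0969 (limma on TPM). It was 4.58e-05 by DESeq2. Without 1 library it ran from 0.0168 to 0.196 by edgeR, past the threshold only without WT 1 or KO 3, with log2 fold changes from -1.50 to -1.19. Without WT 2, the library with no Tph1 count, it was 0.0782. In the 3 libraries with longer fragments, 1 of wild type and 2 of knockout, the log2 fold change was -0.57, against -1.52 in the 5 with shorter ones.

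Rps4l (ENSMUSG00000063171) lies on the plus strand of chromosome 6 from 148354656 to 148355598 in GRCm38. It is annotated as a processed copy, and its closest parent is Rps4x (ENSMUSG00000031320), which encodes a small subunit protein and lies on chromosome X. The first 120 coding bases of Rps4x and the aligned bases of Rps4l are given because they show how far apart the 2 genes are, with capitals on the 26 bases that differ.
Rps4x: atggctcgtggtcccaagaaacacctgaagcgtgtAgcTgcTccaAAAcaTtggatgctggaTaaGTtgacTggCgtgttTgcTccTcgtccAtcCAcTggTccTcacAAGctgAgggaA
Rps4l: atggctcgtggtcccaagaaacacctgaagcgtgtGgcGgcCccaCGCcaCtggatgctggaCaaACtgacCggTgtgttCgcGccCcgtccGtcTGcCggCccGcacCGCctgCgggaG
Over 814 aligned bases the identity was 79.7%, and the Rps4l counts were whole numbers in every library, as reads that RSEM does not divide between genes give. Rps4x itself was at 1126 ± 239 CPM in wild type and 832 ± 107 CPM in knockout (-0.44 ± 0.21 SE, edgeR FDR = 0.310), so Rps4l stood far below its parent in both genotypes. The log2 ratio of Rps4l to Rps4x in TPM was -6.05, -5.58, -5.68 and -5.47 in wild type and -6.88, -6.44, -5.99 and -6.74 in knockout, a difference of -0.82 with overlap between KO 3 and WT 1 (exact permutation p = 0.0571, adjusted p = 0.343 over 6 pairs). Without KO 3, the knockout library that overlapped, the difference was -0.99 with an exact permutation p of 0.0286. That is the smallest p the test allows with the libraries left. It follows from taking out the overlapping library, so nothing is concluded from it. Without any other single library the exact permutation p was 0.0571 or 0.0857. Rps4l lies inside Tmtc1, a gene of the opposite strand, over none of its exons. The kit does not mark strand, so reads of unspliced Tmtc1 cannot be told from those of Rps4l, and the log2 fold change of Tmtc1 itself was 0.20 ± 0.29 (SE, edgeR FDR = 0.752).

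Rpl3l, the muscle paralogue of Rpl3, was the only tested member with a positive log2 fold change, and it did not pass (0.65 ± 0.50 SE, edgeR FDR = 0.517). It measured 94.8, 229, 34.4 and 197 CPM in wild type and 306, 167, 142 and 256 CPM in knockout. The wild-type spread covered most of the knockout range, and WT 3, the highest library for the core genes, was the lowest for Rpl3l. The 12 skeletal muscle markers, such as Acta1, Ckm and Myh4, summed to 36713, 92198, 13843 and 75482 CPM in wild type and 102962, 57476, 59081 and 104064 CPM in knockout, and all 12 were detected in every library. Per 1000 CPM of these markers, Rpl3l stood at 2.58, 2.48, 2.48 and 2.62 CPM in wild type and 2.98, 2.91, 2.41 and 2.46 CPM in knockout. The level of Rpl3l thus moved with the muscle RNA of each library in both genotypes. In bulk tissue, fewer cells of a type and less RNA per cell cannot be told apart. Relative to Rpl3 the log2 TPM ratio ran from -4.80 to -1.76 in wild type and from -1.91 to -1.06 in knockout, a difference of 1.27 (exact permutation p = 0.171, adjusted p = 0.386 over 6 pairs). That difference was 0.60 without WT 3, the library with the least muscle marker RNA, and 1.61 without WT 2. The log2 fold change of Rpl3l was likewise 0.33 without WT 3 and 1.01 without WT 2.

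**Figure D3:**
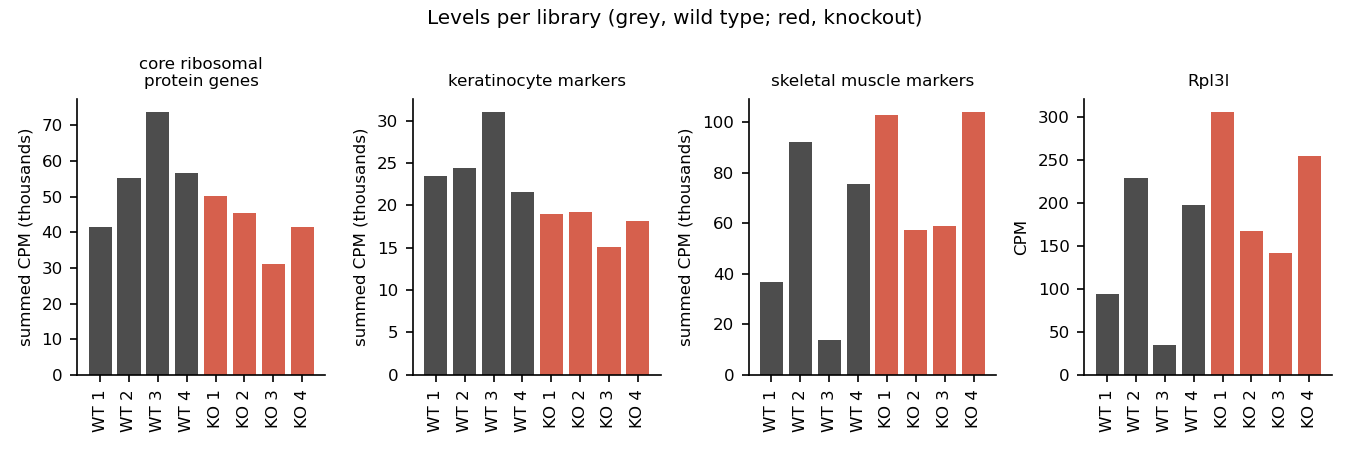
Summed CPM, divided by 1000, of the 77 core genes, 11 keratinocyte markers and 12 skeletal muscle markers, and CPM of Rpl3l, in each library, with wild type in grey and knockout in red. The sums of the core genes and of the keratinocyte markers are highest in WT 3 and lowest in KO 3. The mean log2(CPM + 1) of the 11 keratinocyte markers, not drawn, is highest in WT 1 and lowest in KO 1. The bars of Rpl3l follow those of the muscle markers.

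The remaining paralogues had negative log2 fold changes that did not pass. Rps27l, a p53 target that resembles Rps27, measured 55.0, 70.4, 72.2 and 65.3 CPM in wild type and 62.9, 51.5, 36.6 and 51.7 CPM in knockout (-0.37 ± 0.17 SE, edgeR FDR = 0.283). Rpl7l1, whose protein acts in the assembly of the large subunit rather than in the finished ribosome, measured 53.3, 59.6, 59.2 and 52.6 CPM against 51.3, 50.3, 44.5 and 48.1 CPM. It did not overlap, at a small log2 fold change of -0.21 ± 0.10 (SE, edgeR FDR = 0.312). Rpl22l1, which cells can use in place of Rpl22, was at 68.7 ± 17.9 against 56.3 ± 8.88 CPM (SD, n = 4 each; -0.29 ± 0.20 SE). Rpl39l, a copy of Rpl39 best known from testis, was low at 2.99 ± 0.716 against 2.44 ± 0.658 CPM (SD, n = 4 each; -0.29 ± 0.29 SE), and Rpl10l, a testis copy of Rpl10, was listed at 0 in all 8 libraries, which allows up to 3 counts in each. Relative to their parents, the log2 TPM ratios of Rps27l, Rpl7l1, Rpl22l1 and Rpl39l differed by 0.078, 0.21, 0.14 and 0.016, all with overlap (exact permutation p = 0.657, 0.257, 0.229 and 0.943). Without 1 library the Rpl7l1 difference ran from 0.088 (without KO 3) to 0.29 (without WT 1) and the Rpl22l1 difference from 0.080 (without WT 3) to 0.20 (without WT 4). A difference from the parent was not detectable beyond the spread of the libraries in any of these 4.

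**Figure D4:**
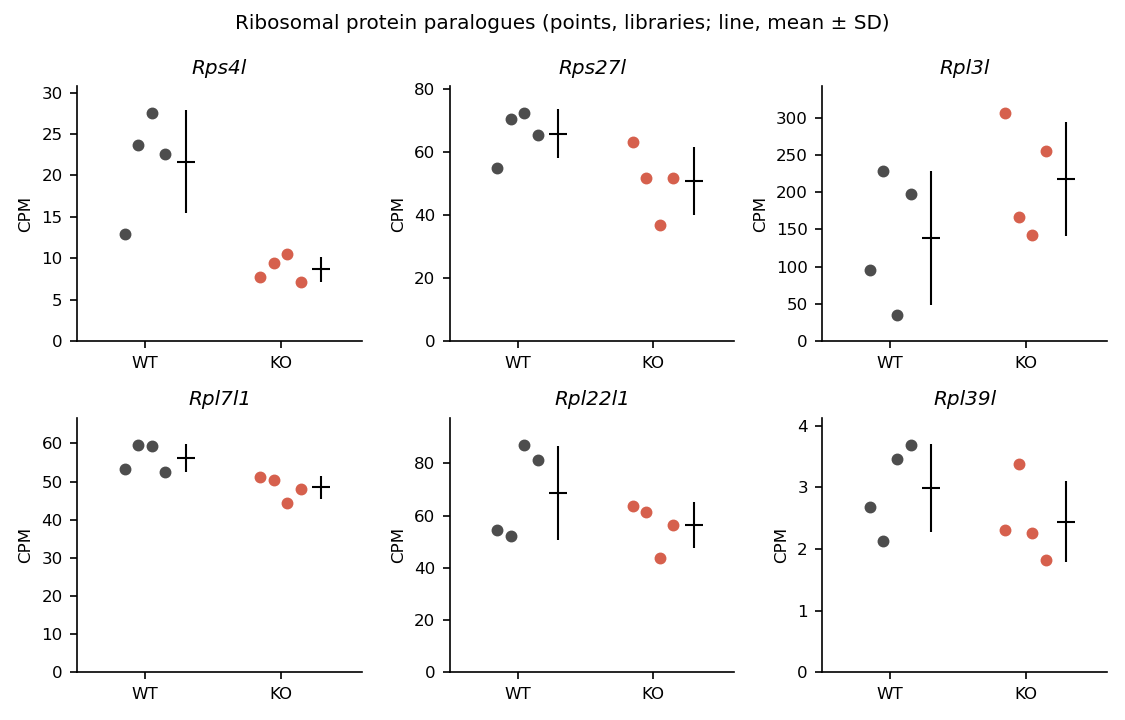
CPM of the 6 tested paralogues in each library, with points for libraries and a line at the mean ± SD of 4. Only in Rps4l and Rpl7l1 do the points of the 2 genotypes not overlap, and Rpl3l is the only one with a higher knockout mean.

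The pseudogene copies are nearly identical to core genes, so their counts depend on how RSEM divided shared reads and are uncertain. Rpl6l shares 98.7% of 871 bases with Rpl6 and measured 8.62, 12.3, 11.6 and 7.07 CPM in wild type and 5.74, 5.87, 3.22 and 5.87 CPM in knockout. It did not overlap and had the second smallest p of the members (-0.93 ± 0.26 SE, edgeR FDR = 0.135), and DESeq2 called it. Rps3a2 and Rps3a3, with 99.5% and 98.9% identity to Rps3a1, and Rpl32l, with 96.0% identity to Rpl32, had log2 fold changes of -0.35 ± 0.18, -0.59 ± 0.34 and -0.24 ± 0.26 (SE). Annotated pseudogenes that matched a core gene at 90% identity or more along 200 bases or more numbered 1005 for 70 of the 77 core genes, of which 146 were tested. They took 5.06% to 5.37% of the counts of the core genes and copies together in wild type and 5.27% to 5.79% in knockout, highest in KO 3.

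Ribosomal proteins whose genes have other names behaved like the core. Fau encodes a ribosomal protein fused to a ubiquitin-like protein, Rack1 a scaffold on the small subunit, and Rpl36al a copy of Rpl36a outside the naming rule. They had log2 fold changes of -0.59 ± 0.26, -0.29 ± 0.20 and -0.52 ± 0.21 (SE). Rpl36al had an unadjusted p under 0.05, and neither edgeR nor DESeq2 called any of the 3. The 75 tested genes of mitochondrial ribosomal proteins, which build a separate ribosome, had a median of 0.014 with 36 negative and 0 called by either tool, 1 lower and 1 higher at an unadjusted p under 0.05.

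Other lists of genes of the translation pathway had medians closer to that of all genes. In the same edgeR fit, 9.37% of all genes were lower and 8.26% higher at an unadjusted p under 0.05. Of 21 listed translation genes whose mRNAs also carry a pyrimidine tract, 18 were negative, 0 at an unadjusted p under 0.05 and 0 called by edgeR or DESeq2, with a median of -0.089. Eef1b2, an elongation factor subunit, had the smallest p among them, and its log2 fold change of -0.45 ± 0.21 (SE, edgeR FDR = 0.297) was near that of the core. Of 24 other initiation genes 15 were negative, 4 lower and 1 higher at an unadjusted p under 0.05 and 0 called by edgeR, with a median of -0.086. DESeq2, which called 3.8% of all genes lower, called 2 of them lower, Eif6 and the helicase gene Eif4a1 (-0.53 ± 0.16 SE by edgeR). Eif6, which keeps large subunits from joining small ones until they are mature, was at 122 ± 28.6 CPM in wild type and 67.1 ± 8.31 CPM in knockout (SD, n = 4 each; -0.86 ± 0.17 SE, edgeR FDR = 0.0659). Of 40 ribosome biogenesis genes 35 were negative and 0 called by edgeR, with a median of -0.25. At an unadjusted p under 0.05, 11 of the 40 were lower and 1 higher, against 6 of the 77 core genes lower in that fit. In 8 of the 40 all knockout libraries lay below all wild-type libraries, against 1 of the 77 core genes and 5.65% of all genes. DESeq2 called 4 lower, Myc, Nhp2, Nolc1 and Nop58. Among them Myc, the transcription factor that drives ribosome production, measured 178, 79.1, 224 and 108 CPM against 61.2, 77.5, 45.7 and 48.8 CPM (-1.34 ± 0.32 SE, edgeR FDR = 0.0969). Its wild-type order, WT 3, WT 1, WT 4 and WT 2, was that of the summed immediate early and heat shock genes described below. In summed core CPM, WT 1 was instead the lowest wild-type library. A link of Myc to either was not tested. Nhp2, a protein of the particles that modify ribosomal RNA, was at -0.76 ± 0.17 (SE, edgeR FDR = 0.0888). Of 13 genes of mTORC1 and its regulators 10 were positive and 0 called by edgeR, with 1 at an unadjusted p under 0.05 and a median of 0.15. That one was the inhibitor gene Tsc1 at 0.60 ± 0.14 (SE, edgeR FDR = 0.0931), which DESeq2 called. Of 14 genes holding p53 targets and Kitl, edgeR called 1 lower and DESeq2 called 2 lower, Cdkn1a and Sesn2, and 1 higher, Eda2r. The gene called by both was Cdkn1a, which encodes the cell cycle inhibitor p21, with 279 ± 43.7 CPM in wild type and 146 ± 24.4 CPM in knockout (SD, n = 4 each; -0.93 ± 0.17 SE, edgeR FDR = 0.0488), while the p53 target Eda2r was at 0.98 ± 0.24 (SE, edgeR FDR = 0.10). Sesn2, another p53 target, was at -0.43 ± 0.12 (SE, edgeR FDR = 0.145). The Cdkn1a call was lost in 17 of 24 alternatives. That list's median was 0.036, with 5 negative and 9 positive.

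Within the core genes, the shorter ones had the more negative log2 fold changes. The median was -0.53 for 11 core genes under 500 bases, -0.45 for 32 of 500 to under 700, -0.42 for 27 of 700 to under 1000 and -0.38 for 7 of 1000 to under 2000 bases. Spearman's rank correlation between log2 fold change and gene length was 0.46 across the 77 core genes, which share every library and are not independent. In the same length classes, well expressed protein-coding genes outside the members (mean CPM 100 or more) had medians of 0.14 (13 genes), 0.025 (50), -0.19 (97) and -0.11 (434), and the rank correlation was 0.17 over 1553 genes. The 13 include the mitochondrially encoded mt-Atp8, mt-Nd3 and mt-Nd4l, at 1.33, 0.81 and 0.39. Over all tested protein-coding genes outside the members, at any level, the medians were -0.33 (74 genes), -0.13 (276), -0.14 (832) and -0.045 (4140), with 0.066 for 9218 genes of 2000 bases and over, and the rank correlation was 0.20 over 14540 genes. The shortest class was there the most negative, as among the core genes. The difference between gene length and RSEM's effective length, which follows the length of the sequenced fragments, was 156, 143, 145 and 145 bases in WT 1 to 4 and 143, 145, 162 and 153 bases in KO 1 to 4. WT 1, KO 3 and KO 4 had the longest fragments and the lowest summed core CPM of the 8 libraries. Within the 5 libraries of shorter fragments the core median was -0.37, and within the 3 of longer fragments it was -0.21, each with all 77 core genes negative and 0 called. With the fragment class as a covariate it was -0.31. The rank correlation of core log2 fold change with length was 0.28 and 0.18 within the classes, 0.40 with an effective-length offset and 0.20 without WT 3 and KO 3. The part of fragment length in the lower core level was not tested further.

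**Figure D5:**
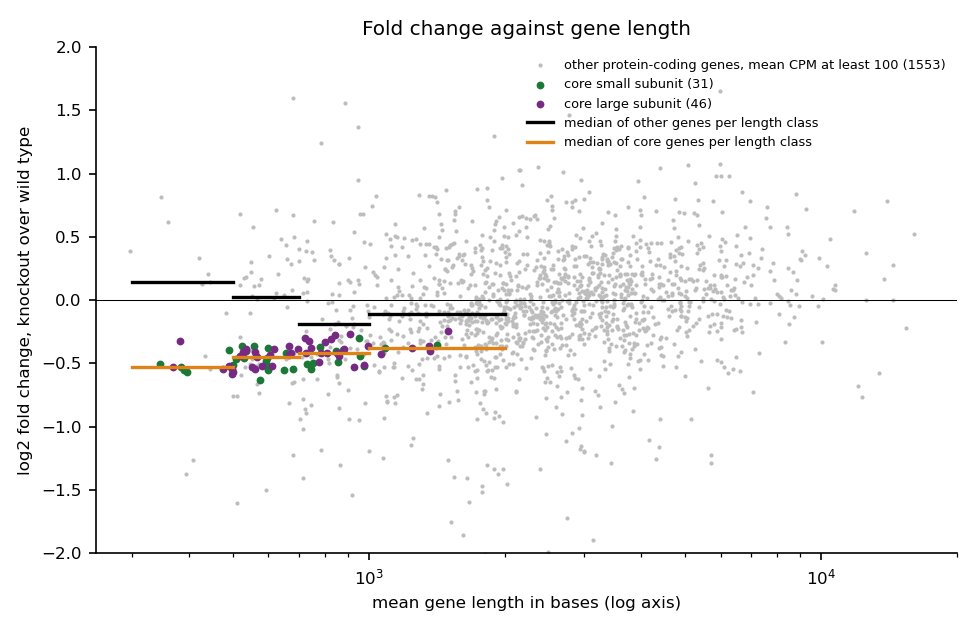
Log2 fold change against mean gene length in bases on a log axis for the 77 core genes (green, small; purple, large) and 1553 well expressed protein-coding genes outside the members (grey, mean CPM 100 or more), with medians per length class as lines; 12 of the other genes lie outside the axes. The core medians run from -0.53 to -0.38 and lie below those of other genes in all 4 classes.

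Markers of the cells in skin differed between libraries, and not in 1 common order. All 11 keratinocyte markers were detected in every library, as the skin label implies. They summed to 21584 to 31022 CPM in wild type and 15141 to 19231 CPM in knockout, without overlap. That sum was highest in WT 3 and lowest in KO 3. As a mean of log2(CPM + 1) over the 11 markers, WT 1 was highest at 10.1 and KO 1 lowest at 9.08. On that scale KO 3 was the highest knockout library at 9.45. The 12 muscle markers summed to more than the keratinocyte markers in every library except WT 3, where they were at 13843 against 31022 CPM. All 11 keratinocyte markers were negative and 6 were lower at an unadjusted p under 0.05, against 9.37% of all genes. Of these markers edgeR called 1, Lor, which encodes loricrin of the cornified layer (-1.47 ± 0.24 SE, edgeR FDR = 0.0379), a call lost in 14 of 24 alternatives. DESeq2 called 4 lower, Ivl, Krt1, Krt10 and Lor. Of all genes, edgeR called 0.532% lower and DESeq2 3.8%. Single keratinocyte markers followed the core order in part: 4 of 11 were highest in WT 3 and 5 of 11 lowest in KO 3, while in 5 of 11, Krt10, Ivl, Flg, Dsp and Dsg1a, KO 3 was the highest knockout library. Of the basal layer keratin genes, named after their values were seen, Krt14 measured 7629 CPM in WT 3, 1749 CPM in KO 3 and between 2777 and 3693 CPM elsewhere, and Krt5 measured 10640 CPM in WT 3, 3585 CPM in KO 3 and 5523 to 7457 CPM elsewhere. Krt15 was highest in WT 2 at 5035 CPM, against 4057 CPM in WT 3, and lowest in KO 3 at 2210 CPM, close to WT 1 at 2392 CPM. All 12 muscle markers were positive and lowest in WT 3, and DESeq2 called 1, Myh1, higher. Mitochondrially encoded genes took 4.19% to 8.40% of counts in wild type and 7.5% to 10.7% in knockout, and their 15 tested genes were all positive, with a median of 0.68. Of 20 immediate early and heat shock genes, which rise when tissue is handled, 19 were negative. At an unadjusted p under 0.05, 17 of the 20 were lower, against 9.37% of all genes. Of the 20 edgeR called 1, Nr4a1 (-2.18 ± 0.33 SE, edgeR FDR = 0.0324), a call lost in 8 of 24 alternatives. DESeq2 called 12 of the 20 lower, Nr4a1 among them, against 3.8% of all genes. The summed level of the 20 was 3921 to 19229 CPM in wild type, highest in WT 3, and 2548 to 5755 CPM in knockout. The 12 hair matrix markers summed to 1549 CPM in KO 3 and 17.6 to 167 CPM in the other libraries, where Krt27, Krt33b, Krt34, Krt81 or Krt86 were at 0 in some. All 5 tested melanocyte markers were positive, and DESeq2 called 1, Mitf, higher. Adipocyte, fibroblast, immune, melanocyte and endothelial marker sums overlapped between genotypes. The part of these cell types and of handling in the core level was not tested.

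Members near the targeted gene had values like those of members elsewhere. Members starting within 10 Mb of Tph1 on chromosome 7 include Rpl13a and Rpl18, with log2 fold changes of -0.52 and -0.43, and the untested Rps12l1. The 14 core genes of chromosome 7 had a median of -0.44 and the 63 on other chromosomes -0.42. The 4 on chromosome X, Rpl10, Rpl36a, Rpl39 and Rps4x, had a median of -0.48. Libraries held 20.5 M to 24.7 M expected counts, and every core gene had at least 3001 in each library, where the spread between libraries exceeds counting error.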

How the data were processed

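Bulk RNA-seq of dorsal skin was analysed in 4 WT and 4 TPH1 knockout libraries. Per the labels' protocols, an RNeasy column kit gave total RNA and a NEBNext Ultra RNA kit, not marking strand, gave the libraries. GRCm38, STAR 2.7.6a, RSEM 1.31, DESeq2 and DESeq appear in the submitters' processing notes without their roles, and Ensembl release 101 in the labels. The authors deposited per library RSEM tables with expected counts, which are not normalized. The TPM values in the same deposited tables are RSEM's levels corrected for effective length and depth. The deposited FPKM values entered no test. The authors also deposited effective gene lengths, used in 1 alternative, and a matrix of 17382 genes whose normalized signal the labels attribute to DESeq2.

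Expected counts (20.5 M to 24.7 M per library) were rounded to whole numbers for edgeR 4.0.16 (R 4.3.3). The steps were filterByExpr (minimum count 10, minimum total 15), TMM scaling and a robust quasi-likelihood F test on genotype alone, with Benjamini-Hochberg adjustment (FDR) over 16908 genes and calls at an FDR under 0.05. SE is the size of the log2 fold change over the square root of F. On simulated counts the test called 15 of 50 genes lowered by 1 on the log2 scale, 45 of 50 lowered by 2, and 8 of 16361 unchanged genes. Paralogue ratios used log2(TPM + 0.1) and an exact two-sided permutation test over 70 assignments, which cannot go below 0.0286. DESeq2 1.42.0, limma 3.58.1, other scalings, no filter, an effective-length offset and leaving out each library were alternatives.

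The members and gene lists were chosen with earlier results of these data known. The division into core genes, paralogues and pseudogene copies was made once the tables were read, from a list of paralogue symbols and then the annotated gene type. The fits without both WT 3 and KO 3 and by fragment class (boundary 150 bases) were added after seeing the data. Named genes were Tph1, called members, paralogues with parents, stalk and textbook-role genes, extremes by fold change, level and p, members within 10 Mb of Tph1, and from other lists called genes and the 2 with the smallest p. Values of 2 of these genes are not reported here, and both were kept in the fits and counts. The authors' matrix named 17354 identifiers, a reference list named 37798, and 336 had no symbol. Coordinates are from GENCODE M21 on GRCm38, and identities from BLAST 2.17.0. The labels do not say that libraries came from separate mice, and p-values then describe only how these libraries vary.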

Additional observations from a re-analysis of the deposited data

Results flagged for a closer look

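In 2 members 1 knockout library stood far from the other 3 knockout libraries, by a test that would mark about 1 in 20 groups by chance. Rpl6l measured 3.22 CPM in KO 3, with a gap to the next library of 0.950 of the group's range. Rps3a3 measured 1.92 CPM in KO 3, with a gap of 0.902 of the range. Both are nearly identical copies of core genes with few counts, and KO 3 is also the library in which all 77 core genes were lowest.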

How the results depend on the processing

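All 77 core genes kept a negative log2 fold change and 0 passed the FDR threshold under each of the 24 alternatives, and the number of negative tested members stayed at 86 of 87 except with no filter on low counts (87 of 88). The alternatives reuse the same libraries, in which the core genes vary together, so they are not separate support. The medians kept their direction. Leaving out 1 library gave -0.56 to -0.28 for all core genes, -0.62 to -0.32 for core small and -0.54 to -0.27 for core large subunit genes, and 0.660 to 0.789 for the summed core TPM of knockout over wild type (0.701 with all libraries). The count of called members, 1 as reported, was 2 by DESeq2 and 0 with upper quartile scaling, library totals only, the effective-length offset, limma on the authors' values or on TPM with either pseudocount, without WT 2 and KO 3, without WT 3 and KO 3, and within the longer-fragment libraries. Without 1 library it was 0 to 1. The count of all called genes, 110, was 984 by DESeq2, 27 with library totals only, 28 and 29 by limma on TPM with a pseudocount of 1 and 0.1, 167 without WT 2 and KO 3, 293 with the fragment class as a covariate, 53 within the shorter-fragment and 1 within the longer-fragment libraries, and 8 to 170 without 1 library. The log2 ratio of Rpl39l to Rpl39 (0.016) ran from -0.19 to 0.17 without 1 library and was -0.29 without WT 2 and KO 3. That of Rps27l to Rps27 ran from -0.034 to 0.16, and that of Rps4l to Rps4x from -0.99 to -0.69. Among 73 named genes under 24 settings, 1665 of 1752 values kept direction and side of the threshold. Most of these genes were not called, so staying on that side says little. The calls of Cdkn1a, Lor, Nr4a1 and Rps4l were lost in 17, 14, 8 and 15 of the 24. Direction turned in 3 markers. Tyrp1 ran from -0.32 to 1.29 without 1 library and was -0.012 on the authors' values, -0.039 on TPM + 0.1, -0.32 without KO 3, -0.41 without WT 2 and KO 3, -0.44 without WT 3 and KO 3 and -0.57 within shorter-fragment libraries. Pecam1 ran from -0.11 to 0.31 without 1 library and was -0.039 without WT 2, -0.11 without KO 3, -0.27 without WT 2 and KO 3, -0.11 without WT 3 and KO 3, -0.013 with the fragment covariate and -0.14 within longer-fragment libraries. Cdh5 was -0.078 without WT 2 and KO 3 and -0.12 within longer-fragment libraries. The causes were not tested. No paired analysis was possible because the labels give no replicate number that both genotypes share.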
